A study of Mus musculus with 12 samples.

Results

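Collagen chain genes in intracranial melanoma tumors were examined across 4 groups of mice. They were taken as the protein-coding genes of the count table whose symbol has the form of a collagen alpha chain (Col, a type number, a and a chain number), which gave 44 genes of the 54532 in the table. All C57Bl6 mice carried B16-OVA melanoma (a mouse melanoma line that makes ovalbumin) under the skin of the flank, and 3 days later received B16-OVA/Fluc cells (the same line with a luciferase) in the striatum. CD8H and CD8L tumors came from mice given combined anti-PD-1 and anti-CTLA-4 antibodies (PC blockade) on days 5 and 7 after brain implantation and differed in how many CD8+ T cells the brain tumor held, high in CD8H (responders) and low in CD8L (non-responders). ΔNK tumors came from mice given the same blockade together with an antibody against NK cells, named anti-Asialo-GM2 in the labels and anti-Asialo-GM1 in the methods of the study, and IgG tumors from mice given control antibodies. The brain tumors were taken on day 8, 3 mice a group, and mRNA of each dissociated tumor was sequenced in bulk. The days are those given with the samples. For mice whose NK cells were isolated, the methods of the study give earlier blockade days. A figure legend of the study refers to that timeline for the sequenced tumors. Because CD8H and CD8L were separated by a property measured in the tumors themselves, they are not randomized groups.

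Collagens are extracellular proteins built from alpha chains that wind around each other as helical trimers, and each chain has its own gene. Fibrillar chains such as those of types I and III form the cables of connective tissue, type IV chains form the sheet of the basement membrane around vessels, and types II, IX and X are best known from cartilage. Normal brain tissue holds little fibrillar collagen, which there lies mainly in the meninges and around vessels.

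Promoter sequence is shown for Col9a1 and Col10a1, for Col19a1, the neighbor of Col9a1 in the genome, and for Col4a6, the neighbor of Col4a5. Other chains, such as Col4a1 and Col4a5, are not shown. For the 4 genes below, the bases before the annotated RefSeq start are given 5′ to 3′ on the strand of the gene (build GRCm38.p6). Capitals mark any match, on either strand, to the basal promoter motif TATAAA, the promoter motif CCAAT, the motif GGGCGG known as the GC box, or the motif ACAAAG, a core that SOX factors bind. The run of Col19a1 is shortened to 215 bases, because the last 35 of the 250 lie inside the gene model of the count table, and the others have 250.
Col9a1 (chr1:24177360-24177609, plus strand): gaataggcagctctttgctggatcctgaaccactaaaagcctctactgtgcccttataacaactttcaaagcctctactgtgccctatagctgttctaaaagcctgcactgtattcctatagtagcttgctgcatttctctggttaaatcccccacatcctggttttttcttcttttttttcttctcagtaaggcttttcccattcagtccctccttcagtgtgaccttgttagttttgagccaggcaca
Col10a1 (chr10:34389731-34389980, plus strand): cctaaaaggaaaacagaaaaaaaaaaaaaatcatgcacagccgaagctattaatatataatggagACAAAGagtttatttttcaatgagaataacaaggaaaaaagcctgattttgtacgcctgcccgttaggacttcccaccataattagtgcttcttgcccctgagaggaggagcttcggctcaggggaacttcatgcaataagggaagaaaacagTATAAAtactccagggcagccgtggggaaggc
Col19a1 (chr1:24587473-24587687, minus strand): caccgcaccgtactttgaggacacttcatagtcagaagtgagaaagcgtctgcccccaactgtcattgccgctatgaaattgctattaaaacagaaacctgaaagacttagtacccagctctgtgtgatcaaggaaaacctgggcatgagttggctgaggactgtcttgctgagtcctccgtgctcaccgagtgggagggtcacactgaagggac
Col4a6 (chrX:141474077-141474326, minus strand): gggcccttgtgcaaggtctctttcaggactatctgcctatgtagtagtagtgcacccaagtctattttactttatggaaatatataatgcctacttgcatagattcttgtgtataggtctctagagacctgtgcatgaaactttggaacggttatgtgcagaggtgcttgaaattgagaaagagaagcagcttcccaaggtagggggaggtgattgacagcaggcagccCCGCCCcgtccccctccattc
Col9a1 and Col19a1 had none of the 4 motifs in this window, Col10a1 had 1 match to TATAAA and 1 to the SOX core, and Col4a6 had 1 GC box on the opposite strand. Over 32851 RefSeq windows of 250 bases, 12.4% held TATAAA, 33.8% CCAAT, 32.7% GGGCGG and 16.5% ACAAAG. The table matched 35 of the 44 genes with 38 windows, of which 5 held TATAAA, 13 CCAAT, 22 GGGCGG and 4 ACAAAG. The genes without an entry were Col1a1, Col2a1, Col4a3, Col5a2, Col9a3, Col12a1, Col14a1, Col22a1 and Col26a1. Col9a1 has a further RefSeq start downstream, which is not shown.

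Library totals ranged between 16336993 and 26416214 counts, and the 44 genes together took between 0.0832% and 0.182% of them, the largest share in IgG tumor 1. Of the 44 genes, 41 passed the filter on low counts and were tested. Col6a5, Col6a6 and Col13a1 did not pass, with 75, 48 and 69 counts over the 12 libraries. A pair of libraries stood apart. CD8H tumor 2 had the highest mean log2 CPM (CPM, counts scaled to the size of the library) of 18 neuron markers, 6.9, against 2.43 and 4.03 in the other CD8H tumors and 2.07 to 5.79 in the other groups, and IgG tumor 1 had the highest levels of Col1a1, Col1a2 and Col3a1. The melanocyte lineage list, which marks the tumor cells, averaged 8.80, 8.03 and 8.74 in CD8H tumors 1 to 3 and 8.62 to 9.0 in the others. Only CD8H tumor 2 lay below the range of the others. Of its 17 genes 2 were higher and 4 lower in CD8H against the mean of the others. The T cell list averaged 4.18 to 5.56 in CD8H tumors and -2.62 to 2.34 in the others, with 10 of 10 genes higher, in the direction of the group labels. Neuron, astrocyte and oligodendrocyte lists had 1 gene higher each and 0 lower of 18, 11 and 12 tested, and the choroid plexus list had 0 of 5. Of all genes, 14.4% were higher and 11.9% lower in the same comparison. The median log2 fold changes of these 4 lists were 1.52, 1.201, 1.28 and 1.63, against -0.404 for the melanocyte list and 0.05 over all genes. The few calls therefore do not show that brain cell markers stood at equal levels. Each edgeR p-value below tests a difference between groups against the spread between mice, which was estimated in 1 fit over all 4 groups.

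Levels between genes were compared on the deposited FPKM, a scale per transcript length. Over the 12 tumors the highest mean FPKM was that of Col4a1 (121), followed by Col4a2 (51.9) and Col9a1 (43.0). The mean FPKM of Col9a1 was 6.14 in CD8H tumors, below Col1a1 (38.9), Col1a2 (36.1) and Col3a1 (31.1) there, against 91.1 in ΔNK, 45.4 in CD8L and 29.5 in IgG tumors. Col3a1, Col16a1, Col1a2, Col1a1, Col15a1 and Col18a1 followed between 20.2 and 22.0. Col4a1 and Col4a2 encode the chains found in nearly every basement membrane. Per kilobase of the longest coding transcript, a length scale added after the data had been seen, the same 3 genes led, with Col9a1 in rank 2 and Col4a2 in rank 3. The lengths behind the deposited FPKM equal the mean length of the annotated transcripts to within 1 base for 42 of the 44 genes, so genes with many short annotated transcripts, such as Col3a1 (rank 4 by FPKM, rank 10 per kilobase), stand higher on the FPKM scale. The lowest mean FPKM among tested genes was that of Col22a1 (0.0913).

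**Figure D1:**
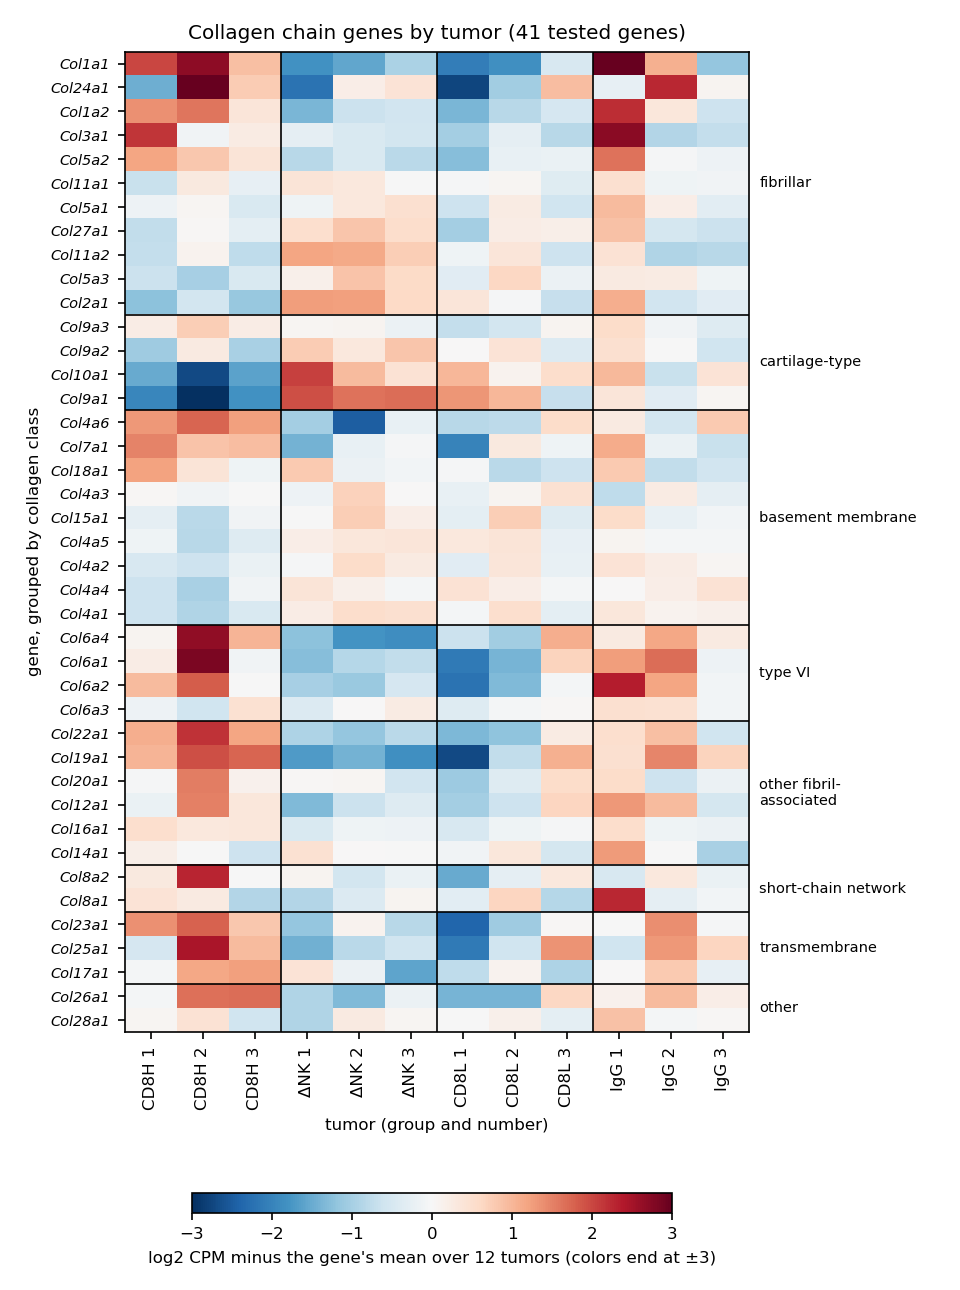
Heatmap of 41 collagen chain genes (rows, grouped by collagen class) in 12 tumors (columns, grouped as CD8H, ΔNK, CD8L and IgG). Colors give log2 CPM minus the mean of the gene over the 12 tumors, with blue below and red above. Col9a1 and Col10a1 are blue in all 3 CD8H tumors, and Col6a1, Col6a4 and Col22a1 are reddest in CD8H tumor 2.

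Class sums are given here as a description. Summed over the cartilage-type chains (Col9a1, Col9a2, Col9a3 and Col10a1), FPKM was 12.8, 12.9 and 14.4 in CD8H tumors, against 109, 95.9 and 94.4 in ΔNK, 68.3, 61.0 and 25.5 in CD8L, and 47.3, 29.0 and 34.7 in IgG tumors. The CD8H sums did not overlap with any other group. Outside CD8H most of this sum was Col9a1. In ΔNK tumors its mean FPKM was 91.1, against 4.16 for Col9a3, 2.53 for Col10a1 and 2.10 for Col9a2. Col9a3 went the other way, with a mean of 5.93 in CD8H, against 4.16 in ΔNK, 3.32 in CD8L and 4.64 in IgG tumors. The sum therefore does not show that the class fell as a whole. Summed over 11 fibrillar chains, FPKM was 169, 179.6 and 91.9 in CD8H tumors, against 83.6, 102 and 84.1 in ΔNK, 49.8, 79.0 and 64.8 in CD8L, and 329, 91.7 and 61.0 in IgG tumors. IgG tumor 1 lay above all CD8H tumors. Summed over 9 basement membrane chains, FPKM was 186, 154 and 185 in CD8H tumors, against 236, 317 and 278 in ΔNK, 186, 294 and 190 in CD8L, and 304, 239.5 and 232 in IgG tumors, so that CD8L tumor 1 lay just above the highest CD8H tumor.

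In CD8H tumors, 18 of the 41 tested chains were called different in level from the mean of ΔNK, CD8L and IgG (23 at an unadjusted p of at most 0.05, beside 41.6% of all genes; edgeR quasi-likelihood test, p and Benjamini-Hochberg adjusted p of at most 0.05), 10 higher and 8 lower. These are 43.9% of the chains, beside 26.3% of all 17320 genes tested, of which 14.4% were higher and 11.9% lower. The median log2 fold change was 0.52 over the chains and 0.05 over all genes. Of the fibrillar chains 2 rose and 2 fell, of the 4 cartilage-type chains 2 fell, of the 9 basement membrane chains 1 rose and 4 fell, of the 4 tested type VI chains 1 rose, and of the 6 other fibril-associated chains 3 rose. The groups did not overlap for 7 chains, of which 2 were higher and 5 lower in CD8H, beside 10.6% and 9.08% of all genes. Without CD8H tumor 2 the test called 4 chains, 0 higher and 4 lower (Col9a1, Col9a2, Col10a1 and Col4a1), beside 15.3% of all genes. Without both CD8H tumor 2 and IgG tumor 1 it called 9, of which Col1a1, Col1a2, Col3a1, Col5a2 and Col16a1 were higher, beside 15.5% of all genes. Without ΔNK tumor 1 it called 11, beside 23.4% of all genes, and without ΔNK tumor 3 also 11, beside 23.5%. Col9a1, Col10a1 and Col4a1 were called with each of the 12 libraries left out in turn.

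**Figure D2:**
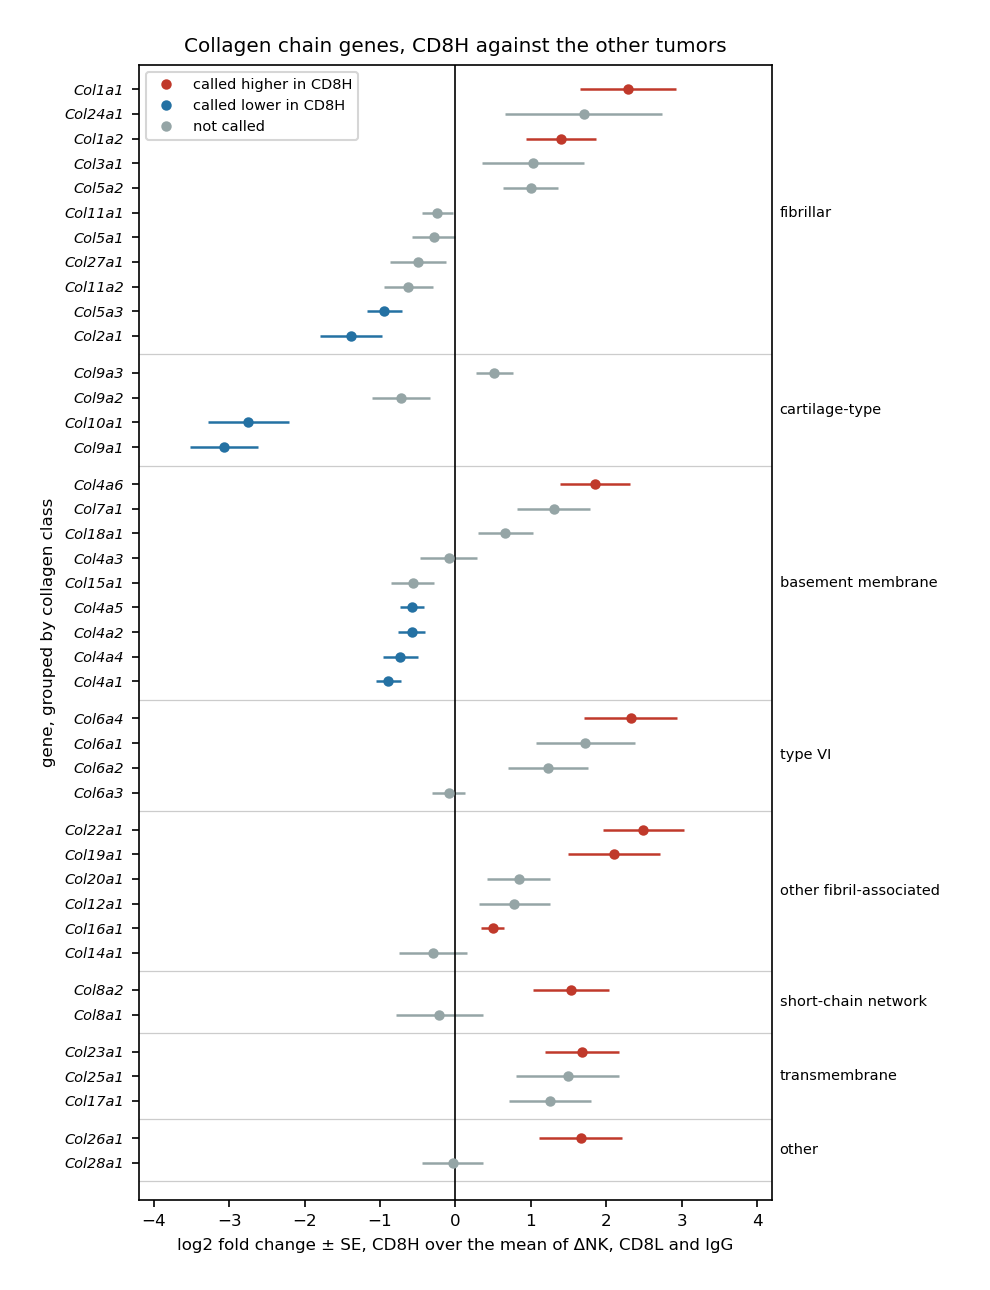
Log2 fold change ± SE of 41 collagen chain genes in CD8H tumors over the mean of ΔNK, CD8L and IgG tumors (horizontal axis), grouped by collagen class (rows). Red marks the 10 genes called higher, blue the 8 called lower and grey those not called, with Col9a1 lowest at -3.07 and Col22a1 highest at 2.49.

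Of the cartilage-type chains Col9a1 and Col10a1 were called lower in CD8H, and the partner chains of Col9a1 did not pass the test. Col9a1 (ENSMUSG00000026147, chr1:24177610-24252684, plus strand) encodes the α1 chain of type IX collagen, which coats the type II fibrils of cartilage. It stood at 15.3, 6.74 and 16.9 CPM in CD8H tumors, against 229, 186 and 193 CPM in ΔNK, 150, 119 and 37.2 CPM in CD8L, and 76.7, 47.1 and 62.1 CPM in IgG tumors. Every CD8H tumor lay below every other tumor, the ΔNK tumors were the highest, and CD8L tumor 3 was the lowest of the rest. The mean of CD8H was 10.6% ± 4.46 of the mean of the 9 other tumors (SD over the 3 CD8H tumors), and the log2 fold change was -3.07 ± 0.45 (SE; edgeR adjusted p = 0.00125). Col9a1 made up 1.43%, 0.648% and 1.97% of all collagen counts in CD8H tumors. Its share was 13.4% to 18.3% in ΔNK, 4.54% to 16.2% in CD8L and 4.33% to 6.69% in IgG tumors.

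Col10a1 (ENSMUSG00000039462, chr10:34389981-34397085, plus strand), the type X chain of hypertrophic cartilage, had the same order of CD8H against the rest at a lower level. It stood at 1.10, 0.416 and 1.02 CPM in CD8H tumors, against 14, 6.43 and 4.49 CPM in ΔNK, 6.66, 3.56 and 4.79 CPM in CD8L, and 6.59, 2.04 and 4.43 CPM in IgG tumors. The groups did not overlap, and the counts behind the CD8H values were 23, 10 and 20. The log2 fold change was -2.75 ± 0.53 (SE; edgeR adjusted p = 0.00479). Col10a1 lies inside the span of Nt5dc1, and reads of overlapping genes cannot be told apart where strand was not used in counting. Nt5dc1 had a log2 fold change of 0.03 ± 0.17 in the same comparison (edgeR adjusted p = 0.884).

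The chains that join α1(IX) in the type IX molecule were not called. Col9a2 stood at 0.858, 2.29 and 0.914 CPM in CD8H tumors, against 2.37 to 3.45 CPM in ΔNK, 1.40 to 2.56 CPM in CD8L and 1.21 to 2.69 CPM in IgG tumors. Col9a3 stood at 7.87, 11.3 and 7.97 CPM in CD8H tumors, against 5.95 to 7.22 CPM in ΔNK, 4.09 to 7.12 CPM in CD8L and 5.13 to 9.93 CPM in IgG tumors. Col9a2 had a log2 fold change of -0.72 and Col9a3 one of 0.52, and Col9a2 was called lower by limma voom and without CD8H tumor 2. The ratio of Col9a1 to Col9a3 CPM, which is not corrected for length, was 1.94, 0.598 and 2.12 in CD8H tumors, 25.8 to 32.4 in ΔNK, 5.22 to 36.7 in CD8L and 7.50 to 12.1 in IgG tumors. Col2a1, the type II fibril chain that type IX collagen binds, was called lower in CD8H at 2.43, 3.91 and 2.59 CPM, against 8.87 to 13.9 CPM in ΔNK, 3.54 to 7.50 CPM in CD8L and 3.85 to 12.5 CPM in IgG tumors (log2 fold change -1.38 ± 0.41 SE; edgeR adjusted p = 0.0307). Its CD8H range overlapped with CD8L and IgG, and the call was lost when any of the 3 CD8H tumors was left out.

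Of 21 genes listed for the cartilage program, 14 were tested, 5 were higher and 3 lower in CD8H, beside 14.4% and 11.9% of all genes. The lower genes were Hapln1, which links hyaluronan to proteoglycan (log2 fold change -2.53), Matn3, a matrilin of cartilage matrix (-2.06), and Sox6, a transcription factor of chondrocyte differentiation (-0.69). The higher genes included Runx3 (2.80) and Runx2 (1.04), transcription factors of bone and T cells, Prg4 (1.57), a joint lubricant, and Sox9 (0.83), the main chondrocyte transcription factor. Defining markers were scarce: Acan, the cartilage proteoglycan, and Comp had 108 and 59 counts over all libraries, and Matn1 and Cnmd had 44 and 37. The list averaged 1.05 to 1.78 log2 CPM in CD8H tumors and 0.98 to 1.36 in the others.

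The fibrillar chains did not move as a class. Col1a1 (ENSMUSG00000001506, chr11:94936224-94953042, plus strand), the main chain of type I collagen, stood at 65.4, 105 and 30.5 CPM in CD8H tumors, against 4.55, 5.46 and 8.40 CPM in ΔNK, 3.79, 4.45 and 11.5 CPM in CD8L, and 149.5, 33.8 and 7.23 CPM in IgG tumors. All CD8H tumors lay above all ΔNK and CD8L tumors, while IgG tumors 1 and 2 fell within or above the CD8H range. Relative to the 3 other groups, its log2 fold change was 2.29 ± 0.64 (SE; edgeR adjusted p = 0.0246). Its partner Col1a2 stood at 90, 106 and 44.5 CPM in CD8H tumors, against 13.4 to 23.2 CPM in ΔNK, 13.3 to 24.5 CPM in CD8L and 161, 43.6 and 22.6 CPM in IgG tumors, with a log2 fold change of 1.40 ± 0.46 (SE; edgeR adjusted p = 0.0468). The call of Col1a2 was lost in 12 of 22 alternatives and that of Col1a1 in 3, among them the fit without CD8H tumor 2.

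Type III collagen did not pass. Col3a1 stood at 114, 24.1 and 30.7 CPM in CD8H tumors, against 17.6 to 21.6 CPM in ΔNK, 12.7 to 21.4 CPM in CD8L and 169, 14 and 15.9 CPM in IgG tumors, so that CD8H tumor 1 and IgG tumor 1 alone exceeded 31 CPM. Of the type V chains, which set the width of type I fibrils, Col5a3 was called and Col5a1 and Col5a2 were not. Col5a1 stood at 12.1 to 17.2 CPM in CD8H tumors and 10.7 to 31.9 CPM in the others. Col5a2 stood at 17.0, 13.3 and 9.90 CPM in CD8H tumors and 4.14 to 5.46 CPM in ΔNK tumors, and was not called against the mean of the others (edgeR adjusted p = 0.0683). Col5a3 fell to 32.3, 25.2 and 36.6 CPM in CD8H tumors, against 56.0 to 90.6 CPM in ΔNK, 39.8 to 76.6 CPM in CD8L and 45.6 to 60.3 CPM in IgG tumors, with no overlap (log2 fold change -0.94 ± 0.23 SE; edgeR adjusted p = 0.0132).

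Some fibroblast and meningeal markers were also higher in CD8H tumors. The mean log2 CPM of 14 fibroblast markers was 2.31, 2.08 and 1.86 in CD8H tumors, against 0.96, 0.86 and 1.42 in ΔNK, 0.83, 0.84 and 1.63 in CD8L, and 2.04, 1.79 and 1.40 in IgG tumors. Of its 10 tested genes 4 were higher, beside 14.4% of all genes, among them the small proteoglycan Dcn (log2 fold change 3.44), and Fbln1 was lower (-0.59). Dpt had 8 counts over all libraries. The list also holds Thy1 and Pdgfra, and whether its genes are specific to fibroblasts in these tumors was not tested. The list mean can therefore hold RNA of other cells, such as the T cells by which CD8H tumors were set apart. Of 11 leptomeningeal markers 5 were higher, among them Slc47a1 (2.16) and Aldh1a2 (2.61), with means of 2.18 to 3.18 log2 CPM in CD8H tumors and 1.00 to 2.28 in the others. Across the 12 tumors, which share library preparation and group structure, log2 CPM of Col1a1 and the fibroblast mean had a Pearson correlation of 0.93, and Col1a1 and the leptomeningeal mean had 0.80. The part of these cells in the values of Col1a1 was not tested. With the fibroblast mean as a covariate, an alternative chosen after the data had been seen, the log2 fold change of Col1a1 was 0.15 and that of Col9a1 -2.30. That fit called 0 of the 41 chains (5 at an unadjusted p of at most 0.05) and 0 of all 17320 genes in edgeR. Because the fibroblast mean did not overlap between CD8H and the ΔNK and CD8L tumors, the fit cannot separate it from group. In bulk RNA fewer cells of a type and less RNA per cell cannot be told apart.

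**Figure D3:**
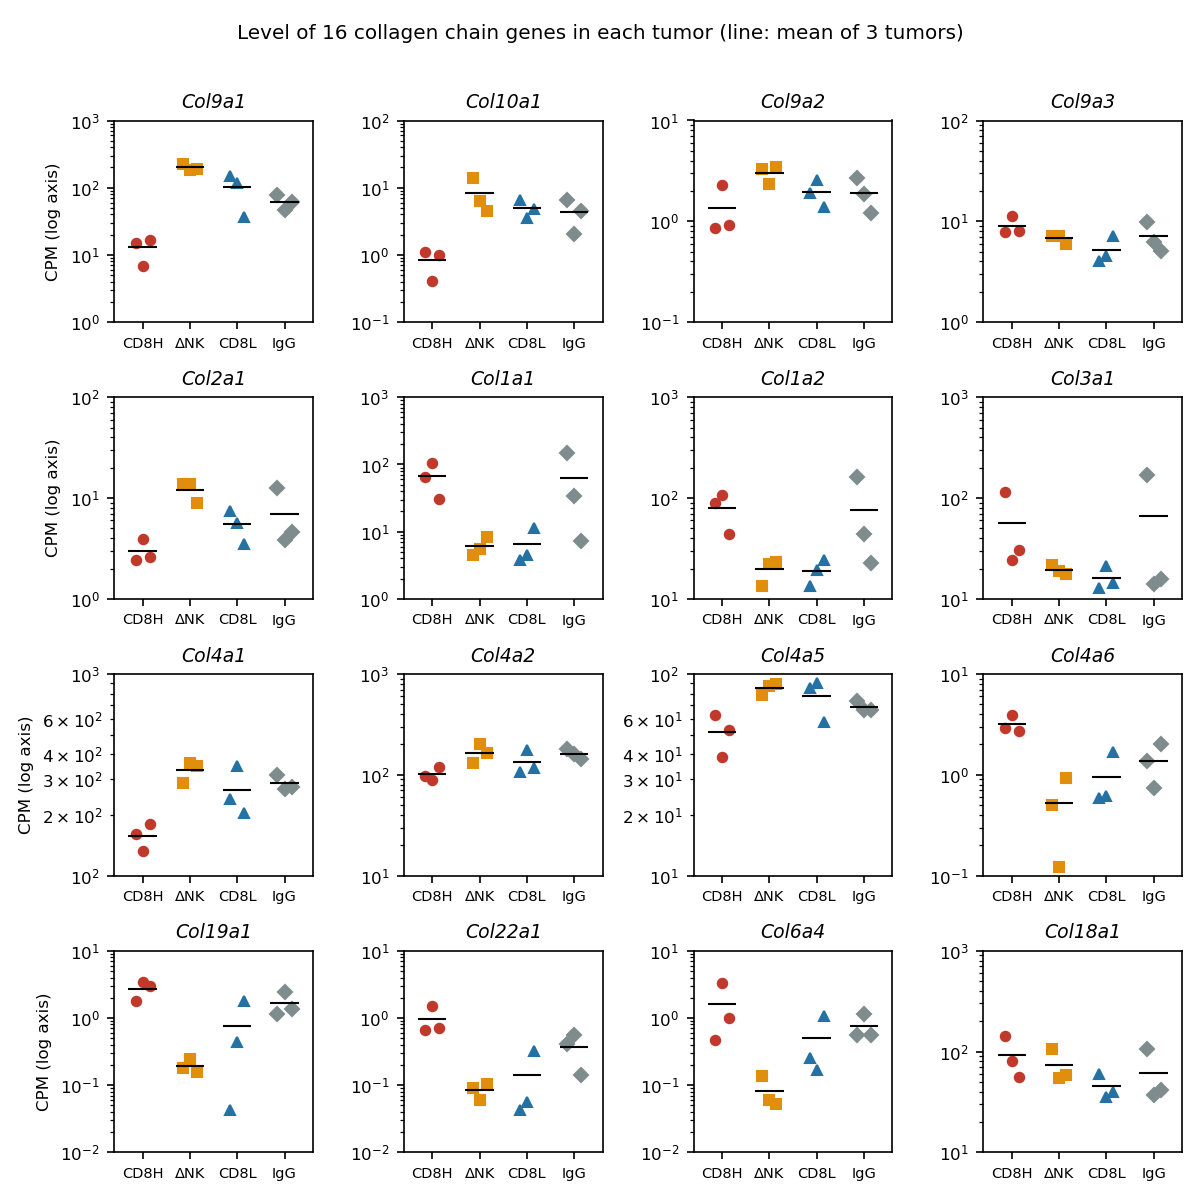
Level of 16 collagen chain genes in each tumor as CPM on a log axis, with groups ordered CD8H, ΔNK, CD8L and IgG, a point per tumor and a line at the mean of 3 tumors. Col9a1 and Col10a1 lie lowest in CD8H without overlap, whereas Col1a1 lies high in CD8H and in IgG tumors 1 and 2.

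Of the 9 basement membrane chains 4 were called lower in CD8H, 1 higher and 4 were not called. Col4a1 (ENSMUSG00000031502, chr8:11198423-11312826, minus strand) stood at 161, 133 and 180 CPM in CD8H tumors, against 289, 361 and 349 CPM in ΔNK, 239, 350 and 204 CPM in CD8L, and 315, 269 and 275 CPM in IgG tumors. No CD8H tumor reached the lowest of the others, and the log2 fold change was -0.89 ± 0.17 (SE; edgeR adjusted p = 0.00402). Col4a2, which supplies the other chain of the same trimer, stood at 98.3, 89.4 and 119 CPM in CD8H tumors, against 132 to 201 CPM in ΔNK, 108 to 176 CPM in CD8L and 143 to 182 CPM in IgG tumors (log2 fold change -0.58 ± 0.18 SE; edgeR adjusted p = 0.0335). The call of Col4a2 was lost in 8 of 22 alternatives. The ratio of Col4a1 to Col4a2 CPM, not corrected for length, was 1.49 to 1.64 in CD8H and 1.68 to 2.22 in the other tumors.

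The remaining type IV chains, which have more restricted sites such as kidney and lung, split. Col4a5 stood at 62.7, 38.9 and 52.8 CPM in CD8H tumors, against 79.1 to 88.8 CPM in ΔNK, 57.9 to 90.7 CPM in CD8L and 66.2 to 73.2 CPM in IgG tumors, and was called lower (log2 fold change -0.58 ± 0.16 SE; edgeR adjusted p = 0.0231). Col4a6 (ENSMUSG00000031273, chrX:141165403-141474076, minus strand) was called higher at 2.91, 3.95 and 2.74 CPM in CD8H tumors, against 0.501, 0.121 and 0.940 CPM in ΔNK, 0.590, 0.612 and 1.67 CPM in CD8L, and 1.37, 0.736 and 2.01 CPM in IgG tumors. These groups did not overlap (log2 fold change 1.85 ± 0.47 SE; edgeR adjusted p = 0.0158). Without CD8H tumor 2 neither Col4a5 nor Col4a6 was called. Col4a4 was lower in CD8H at 2.87 to 5.33 CPM, against 5.43 to 7.74 CPM over the other 9 tumors, and lost its call in 12 of 22 alternatives. Col4a3 stood at 0.374 to 0.429 CPM in CD8H tumors and 0.203 to 0.728 CPM in the others, and was not called. Col15a1 and Col18a1, whose products carry heparan or chondroitin sulfate chains at vessel walls, were not called either.

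Other genes of the basement membrane list gave 2 higher and 6 lower of 15 tested, beside 14.4% and 11.9% of all genes. The nidogen Nid2 (log2 fold change -1.25), the laminin chains Lama5 (-1.42) and Lamc1 (-0.71) and the proteoglycan Hspg2 (-0.93) were lower, and the laminin chains Lama1 (1.33) and Lamb3 (1.49) were higher. Of 12 mural cell markers 2 were lower, Pdgfrb (-0.68) and Des (-0.64), and 0 higher at the adjusted threshold. Of 12 endothelial markers 2 were lower, Emcn (-0.67) and Tie1 (-0.48). The endothelial mean was 4.28 to 4.53 log2 CPM in CD8H tumors and 4.02 to 4.67 in the others, and the mural mean was 2.41 to 3.00 in CD8H tumors and 2.75 to 3.28 in the others. Their part in the fall of the type IV chains was not tested.

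The fibril-associated chains outside type IX were higher or not called. Col22a1 (ENSMUSG00000079022, chr15:71795795-72034227, minus strand), a chain known from the junction of muscle and tendon, had few reads. It had 14, 36 and 14 counts in CD8H tumors, against 2, 1 and 2 in ΔNK, 1, 1 and 7 in CD8L, and 8, 10 and 3 in IgG tumors. As CPM the groups did not overlap, with 0.667 to 1.5 in CD8H and 0.0421 to 0.566 in the others (log2 fold change 2.49 ± 0.53 SE; edgeR adjusted p = 0.00746). Col19a1, a chain of basement membrane zones and of some interneurons, stood at 1.76, 3.41 and 2.94 CPM in CD8H tumors, against 0.182, 0.243 and 0.157 CPM in ΔNK, 0.0421, 0.445 and 1.81 CPM in CD8L, and 1.17, 2.44 and 1.35 CPM in IgG tumors. Its ranges overlapped (log2 fold change 2.10 ± 0.61 SE; edgeR adjusted p = 0.0291), and the call was lost in 10 of 22 alternatives. Col16a1, the most abundant of this class by FPKM, stood at 61.5, 53.5 and 54.5 CPM in CD8H tumors and 30.8 to 62.2 CPM in the others, with a small log2 fold change of 0.50 ± 0.15 (SE; edgeR adjusted p = 0.0376) and a call lost in 12 of 22 alternatives.

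Type VI chains, which form beaded filaments around cells, were uneven among CD8H tumors. Col6a1, the type VI chain with the highest FPKM averaged over the 12 tumors (Col6a3 was higher in ΔNK and CD8L tumors), stood at 13.1, 80.3 and 10.5 CPM in CD8H tumors, against 4.60 to 6.68 CPM in ΔNK, 2.49 to 18.0 CPM in CD8L and 10.1 to 35.9 CPM in IgG tumors, and was not called (edgeR adjusted p = 0.0735). Col6a4 was called higher with 10, 81 and 20 counts in CD8H tumors, against 3, 1 and 1 in ΔNK, 6, 3 and 23 in CD8L, and 11, 20 and 12 in IgG tumors (log2 fold change 2.32 ± 0.62 SE; edgeR adjusted p = 0.0199), a call lost without CD8H tumor 2. Col6a3 stood at 19.4 to 40.0 CPM in CD8H tumors and 22.1 to 40.9 CPM in the others. The filtered-out Col6a5 had 2.16 CPM in CD8H tumor 2 and at most 0.659 CPM elsewhere.

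Col8a2, a short-chain collagen of the cornea, stood at 1.29, 5.37 and 1.02 CPM in CD8H tumors and 0.295 to 1.3 CPM in the others, and its partner Col8a1, the more abundant by FPKM, was not called. Among the transmembrane chains Col23a1 was called higher at 4.62, 6.11 and 3.10 CPM in CD8H tumors, against 0.729 to 1.88 CPM in ΔNK, 0.253 to 1.77 CPM in CD8L and 1.68 to 4.76 CPM in IgG tumors. Col25a1, a transmembrane chain made by neurons, stood at 2.29, 18.3 and 6.4 CPM in CD8H tumors and 0.674 to 8.51 CPM in the others, and was not called. Col26a1 was called higher at 0.572, 2.08 and 2.13 CPM in CD8H tumors and 0.167 to 1.25 CPM in the others. Col8a2 was called higher too, and the calls of Col8a2, Col23a1 and Col26a1 were lost in 15, 10 and 14 of 22 alternatives. The highest CPM of Col6a1, Col6a4, Col6a5, Col8a2, Col24a1 and Col25a1 lay in CD8H tumor 2, the library with the highest neuron marker mean. The same held for Col4a6, Col9a3, Col12a1, Col19a1, Col20a1, Col22a1 and Col23a1. With the neuron mean as a covariate 20 chains were called in CD8H against the other groups, 13 higher and 7 lower, beside 31.4% of all genes. Col3a1, Col5a2, Col7a1 and Col18a1 were called in that fit, and Col2a1 and Col8a2 were not.

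Neighboring collagen genes did not all follow each other over the 12 tumors. Correlations here are descriptions over 12 log2 CPM values that share the group structure. Col4a1 and Col4a2, which lie head to head and overlap at their starts, had a Pearson correlation of 0.92 (Spearman 0.92), and Col6a1 and Col6a2, on the same strand, had 0.91 (0.95). Col3a1 and Col5a2, tail to tail, had 0.84 (0.64). Col9a1 and Col19a1 lie tail to tail on chromosome 1 with 9206 bases between their ends and had -0.88 (-0.90). Col4a5 and Col4a6 lie head to head on chromosome X with 1309 bases between their starts and had -0.80 (-0.81). Col4a3 and Col4a4, head to head with 72 bases between them, had -0.02 (-0.25). Col4a3 had only 4 to 13 counts a library and 103 over all libraries, too few for this value to show whether the pair moves together. The ratio of Col4a5 to Col4a6 CPM was 9.84 to 21.6 in CD8H tumors, 94.6 to 716 in ΔNK, 34.6 to 148 in CD8L and 33.0 to 89.9 in IgG tumors, where 716 rests on 2 counts of Col4a6.

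**Figure D4:**
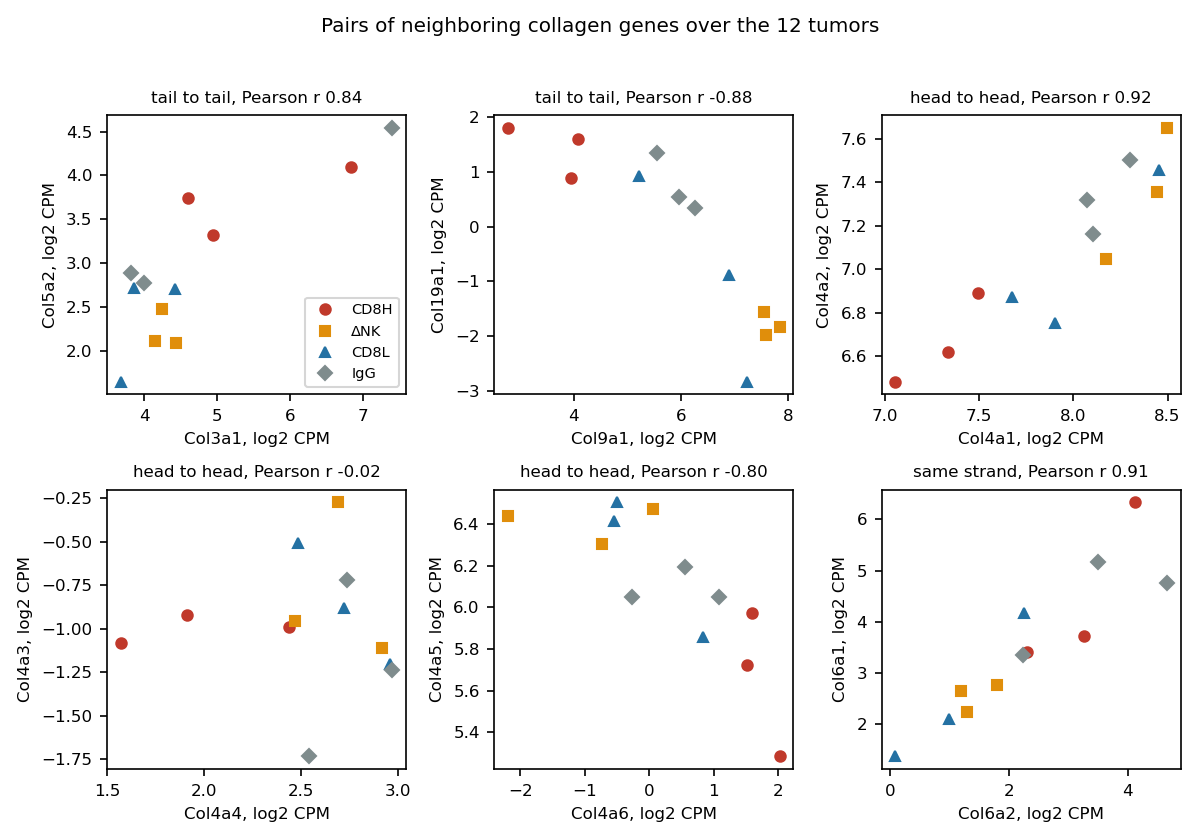
Pairs of neighboring collagen genes, each axis the log2 CPM of a gene of the pair, with a point per tumor, shape and color by group (CD8H, ΔNK, CD8L, IgG) and Pearson's r above each panel. Col9a1 and Col19a1 run in opposite directions (r -0.88), whereas Col4a1 and Col4a2 run together (r 0.92).

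The comparison of responders with non-responders under the same blockade called 5 of 41 chains (22 at an unadjusted p of at most 0.05, beside 30.9% of all genes), beside 11.2% of all genes (6.03% higher and 5.16% lower). In CD8H against CD8L, Col1a1 (log2 fold change 3.34 ± 0.94 SE; edgeR adjusted p = 0.0454) and Col22a1 (2.71 ± 0.75; edgeR adjusted p = 0.0426) were higher. Col9a1 (-2.98 ± 0.49; edgeR adjusted p = 0.0165), Col10a1 (-2.57 ± 0.58; edgeR adjusted p = 0.0252) and Col4a1 (-0.74 ± 0.20; edgeR adjusted p = 0.0375) were lower. The CD8H and CD8L tumors did not overlap for these 5 genes, nor for 16 of the 41 chains in all, beside 15.6% of all genes higher and 15.5% lower without overlap. The count of chains moved with the libraries, as did that of all genes. Without CD8H tumor 1, CD8L tumor 1 or CD8L tumor 2 it was 0 chains, beside 2, 0 and 0 of all genes in the same fits. It was 1 without CD8H tumor 2 (4.09% of all genes), 2 without IgG tumor 2 (8.35%) or ΔNK tumor 3 (8.1%), and 3 without ΔNK tumor 1 (9.6%) or ΔNK tumor 2 (11.5%). Without CD8L tumor 3 it was 16, beside 22.5% of all genes. CD8L tumor 3 had a neuron marker mean of 5.19 log2 CPM, against 2.43 and 2.72 in the other CD8L tumors, and lay nearest to CD8H for Col9a1, Col1a1, Col4a1, Col4a6 and Col19a1 among CD8L tumors.

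Against NK cell-depleted tumors under the same blockade, CD8H tumors differed in 18 of 41 chains (43.9%), beside 30.3% of all genes (15.7% higher and 14.6% lower), and 26 passed an unadjusted p of at most 0.05, beside 46.4%. The smallest adjusted p among the 8 lower chains were those of Col9a1 (log2 fold change -3.97 ± 0.51 SE; edgeR adjusted p = 0.00112), Col10a1 (-3.30 ± 0.60; edgeR adjusted p = 0.0033) and Col4a1 (-1.07 ± 0.20; edgeR adjusted p = 0.0035). Among the 10 higher chains they were those of Col6a4 (4.16 ± 0.98; edgeR adjusted p = 0.0113), Col22a1 (3.39 ± 0.80; edgeR adjusted p = 0.0115) and Col19a1 (3.77 ± 0.94; edgeR adjusted p = 0.0141). ΔNK tumors had 1 to 3 counts of Col6a4, 1 to 2 of Col22a1 and 3 to 4 of Col19a1, so these fitted fold changes rest on very few reads. Col11a2, a cartilage fibril chain, was also lower in CD8H (-1.44, edgeR adjusted p = 0.0212). It stood at 19.2, 33.6 and 18.4 CPM in CD8H and 71.2, 69.3 and 52.5 CPM in ΔNK tumors. The count was 9 without ΔNK tumor 1 (19% of all genes), 10 without ΔNK tumor 2 (19.7%), and 11 without ΔNK tumor 3 (21.2%) or CD8H tumor 2 (20.3%). Both this comparison and the preceding one share the CD8H tumors.

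Against IgG tumors, 0 of 41 chains were called in CD8H by edgeR, beside 0.745% of all genes, while 7 passed an unadjusted p of at most 0.05, beside 19.1% of all genes. DESeq2 called 6 chains, all lower in CD8H (Col9a1, Col10a1, Col4a1, Col4a2, Col4a4 and Col5a3), beside 12.1% of all genes, and limma voom called 4, beside 15%. The log2 fold change was -2.26 ± 0.47 for Col9a1 (edgeR adjusted p = 0.0529), -2.37 ± 0.58 for Col10a1 (edgeR adjusted p = 0.0683) and 0.07 ± 0.85 for Col1a1 (edgeR adjusted p = 0.971). Without CD8L tumor 3, and likewise without ΔNK tumor 2, Col9a1 and Col4a1 were called, beside 2.32% and 4.2% of all genes. Without CD8H tumor 3 Col9a1 was called, beside 2.43% of all genes.

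Between the other groups edgeR called 0 chains. In CD8L against IgG 0 were called (0% of all genes), and 6 passed an unadjusted p of at most 0.05, beside 2.19% of all genes. DESeq2 and limma voom called 0, beside 0.00577% and 0% of all genes. In ΔNK against IgG 0 were called (0.0173% of all genes), 11 passed unadjusted, beside 15% of all genes, and DESeq2 and limma voom called 7 each, beside 5.32% and 7.93% of all genes in the same fits. Among these, Col9a1 averaged 203 ± 22.9 CPM in ΔNK and 62.0 ± 14.8 CPM in IgG tumors (SD, n = 3 each) without overlap, with a log2 fold change of 1.71 ± 0.46 (SE; edgeR adjusted p = 0.173). In ΔNK against CD8L 0 were called (0% of all genes), and 3 passed unadjusted, beside 6.07%. DESeq2 and limma voom also called 0, beside 0.872% and 0% of all genes. Col9a1 averaged 203 ± 22.9 CPM in ΔNK and 102 ± 58.3 CPM in CD8L tumors (SD, n = 3 each), with a log2 fold change of 0.99 ± 0.45 (SE; edgeR adjusted p = 0.824).

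Enzymes that fold and modify collagen chains were lower in CD8H or not called. Against the mean of the others, 0 of 23 were higher and 6 lower, beside 14.4% and 11.9% of all genes (26.3% in either direction). The lysyl hydroxylase Plod2 had a log2 fold change of -1.11, the collagen chaperone Serpinh1 -0.95, the prolyl hydroxylase family member P3h3 -0.54 and the secretion factor Mia3 -0.31. Of 13 tested genes for processing and crosslinking 2 were higher, the transglutaminase Tgm2 (2.78) and the procollagen N-proteinase Adamts14 (1.54). Of 14 tested genes for collagen degradation 4 were higher, among them the cathepsin Ctsb (1.00), the inhibitor Timp1 (0.86) and the collagen uptake receptor Mrc2 (0.80), and the inhibitor Timp3 was lower (-0.56). Of 12 tested receptors Lair1, an inhibitory receptor of immune cells, was higher (1.81), and Adgrg1 (-0.69), the integrin chain Itga1 (-0.92) and Sdc1 (-0.82) were lower. Macrophage and microglia markers, 10 of 12 of which were higher, averaged 5.90 to 6.21 log2 CPM in CD8H tumors and 3.41 to 5.30 in the others, and their part in these genes was not tested.

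Proteins that bind fibrils gave 6 higher and 3 lower of 20 tested, beside 14.4% and 11.9% of all genes. Dcn (log2 fold change 3.44), Fbn1 (1.47), Thbs1 (1.3) and Tnc (1.24) were higher, and Aspn (-1.06) was lower. Of 16 genes of TGF-beta signaling, a pathway that raises collagen transcription in fibroblasts, 4 were higher and 4 lower, beside the same shares of all genes. The ligand Tgfb1 was higher (1.27) with the matrix protein Tgfbi (2.05), and the ligands Tgfb2 (-0.77) and Tgfb3 (-0.62) were lower. Over the 8 matrix lists 50 of 127 tested genes were called, 24 higher and 26 lower, beside 26.3% of all genes (14.4% higher and 11.9% lower).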

How the data were processed

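Bulk polyA mRNA of 12 intracranial tumors (3 per group, from separate mice) was sequenced as paired-end reads. Counts per gene were made by the authors with featureCounts 1.5.0-p3, after alignment with STAR 2.6.1d (GRCm38.p6), and deposited unnormalized. StringTie 1.3.3b is also named in their notes. They also deposited FPKM per gene, used here only for levels between genes. Strand use in counting is not given in the sources used here.

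Counts were tested with edgeR 4.0.16 (R 4.3.3; quasi-likelihood F test, TMM, filterByExpr, 17320 of 54532 genes, 8 residual degrees of freedom) in 1 fit of all tumors, with 7 comparisons. A call needed p and Benjamini-Hochberg adjusted p of at most 0.05 over all tested genes. CPM is after TMM, with a prior count of 2 on the log2 scale. The script was tested on simulated data. Replicates differed by more than sampling noise (chi-square per degree of freedom of at least 15.7), so each counts as 1 sample. Deviations of same-numbered ΔNK and CD8L tumors from their group means correlated at 0.48 to 0.59 in 3 of 3 pairs. The labels name no pairing, and the fit was unpaired. A block on replicate number over all groups also called 0 chains between ΔNK and CD8L, beside 0% of all genes. Alternatives used DESeq2 1.42.0, limma 3.58.1 and others listed at the end. The genes, classes and 20 gene lists were chosen with earlier results of these data known. Named genes were Col9a1 and Col10a1, in each direction the 4 called chains of smallest adjusted p, the chain with the highest FPKM per class, chains called in a pair of groups (all of up to 10, otherwise 3 each way), neighbors within 100000 bases and up to 4 called genes per list. Further chains were named after their values were seen.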

Additional observations from a re-analysis of the deposited data

How the results depend on the processing

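No called value changed sign. For the chains called in CD8H against the mean of the others (18), coding the 9 other tumors as 1 group gave 11, beside 23.7% of all genes. Leaving out both CD8H tumor 2 and IgG tumor 1 gave 9 (15.5%), and the fibroblast mean as a covariate gave 0 (0%). Leaving out each library gave 4 (15.3%) to 23 (39.5%). For CD8H against CD8L (5), the counts are given with the share of all genes called in the same fit. They were 2 (5.14%) with the filter of at least 10 counts, 15 (24.2%) with DESeq2 and 11 (22.3%) with limma voom. They were 0 (0%) with only the compared libraries, 12 (17.6%) with the neuron mean and 0 (0%) with the fibroblast mean. Without both libraries the count was 2 (3.58%), and with each left out it was 0 to 16 (0% to 22.5%). For CD8H against ΔNK (18) the counts were 0 (0%) with the fibroblast mean and 9 (19%) to 22 (32%) with each library left out. For CD8H against IgG (0) they were 1 (2.16%) with upper quartile scaling, 6 (12.1%) with DESeq2 and 4 (15%) with limma voom. They were 4 (9.52%) with the neuron mean and 0 to 2 (0% to 4.2%) with each library left out. For ΔNK against IgG (0) they were 7 (5.32%) with DESeq2, 7 (7.93%) with limma voom and 1 (0.176%) with only the compared libraries. The matrix lists (50) gave 0 with the fibroblast mean (0% of all genes) and 30 (15.3%) to 70 (39.5%) with each library left out. The cause was not tested. The fibroblast covariate, the removal of both libraries and the length per coding transcript were chosen after seeing the data. With the replicate number as a block, the counts were 17, 7, 19 and 2 for CD8H against the mean of the others, CD8L, ΔNK and IgG. These stood beside 33.5%, 16.9%, 39.1% and 5.1% of all genes, and the count was 0 for the rest. Same-numbered tumors correlated over 0.1 in 11 of 18 pairs (-0.36 to 0.73), against 8 of 36 differently numbered pairs. Not every pair passed and the labels name no pairing, so the numbers were not taken as a pairing in any comparison. Chains with under 100 counts limit what depth can show. Groups hold 3 mice, and CD8H was set apart by T cell content.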

Other observations

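Markers of osteoblasts, cells that also deposit type I collagen, gave 3 of 6 tested genes higher in CD8H than in the 3 other groups. Of all genes, 14.4% were higher (edgeR quasi-likelihood test). The matrix proteins Bglap and Bglap2 had log2 fold changes of 3.22 and 2.54, and the phosphatase Alpl had 1.68. The list averaged -0.15 to 2.20 log2 CPM in CD8H tumors, with the top value in CD8H tumor 2, and -1.40 to 0.46 in the others. Bglap and Bglap2 are near-identical copies that may share reads, and Ibsp, a bone sialoprotein, had 76 counts in all and 0 in 9 libraries.

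Over the 12 tumors, the chains most like Col9a1 in log2 CPM were Col4a5 (Pearson's r 0.93), Col10a1 (0.91) and Col4a1 (0.90), and those most opposed were Col22a1 (-0.93), Col6a4 (-0.88) and Col19a1 (-0.88). Those most like Col1a1 were Col1a2 (0.98), Col6a2 (0.95) and Col5a2 (0.92). All these values share the group structure of the 12 libraries.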
